A study of Mus musculus with 6 samples.

Results

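Oxidative phosphorylation genes were taken as the array probes whose single gene symbol begins with Ndufa, Ndufb, Ndufc, Ndufs, Ndufv, Sdha, Sdhb, Sdhc, Sdhd, Uqcr, Atp5, or Cox4 to Cox8 with a letter, which names nuclear-encoded subunits of the 4 respiratory complexes and of ATP synthase. The rule found 84 probes of 76 genes among 34967 gene probes, of which the named ones covered 18507 genes. It used no measured value. Complex I had 32 genes on 35 probes, complex II 4 on 4, complex III 8 on 11, complex IV 16 on 16 and complex V 16 on 18. Left out were 11 probes of 9 assembly factors, 1 probe of a pseudogene and 6 probes that carry several gene symbols, such as those of Ndufa4, Ndufb8 and Ndufv3. All 84 probes are also in the series' deposited value table.

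The respiratory chain passes electrons from NADH (complex I) and succinate (complex II) through ubiquinone to complex III, cytochrome c and complex IV, which reduces oxygen, and ATP synthase (complex V) uses the proton gradient that this builds. Most subunits are encoded in the nucleus and are transcribed in every cell with mitochondria, so their transcript levels are often read as a measure of mitochondrial content. A few subunits of complex IV have tissue isoforms: heart, skeletal muscle and brown fat use Cox6a2, Cox7a1 and Cox8b in place of Cox6a1, Cox7a2 and Cox8a.

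The study measured total RNA of the pyloric region, the distal stomach with a margin on either side of the pyloric stricture, from 6 mouse embryos at E18.5 on 1-colour CodeLink arrays. The labels give 3 embryos as knockout for a homeobox factor of the gut mesenchyme, Nkx3-2 or Bapx1, and 3 as wildtype littermates. All came from crosses of Bapx1 CRE/+ mice, in which a Cre allele sits at the gene, and were genotyped from yolk sac DNA. Litter pairs were inferred from the animal codes, with 1 knockout and 1 wildtype embryo in each of 3 pairs. The labels do not state which embryos share a litter. The labels name no strain, and each array holds the RNA of 1 embryo, as far as the labels show.

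Values below are log2 normalized intensities, which can be compared between arrays for 1 probe but not between probes. The median signal above local background was 204 to 207 units in pair 1 and 109 to 131 in pairs 2 and 3, with local backgrounds of 38 to 46. By the file headers the arrays of pair 1 were scanned on another occasion (batch A) than those of the other pairs (batch B). The Nkx3-2 probe read 7.73, 8.02 and 7.79 in the arrays labelled knockout and 7.47, 7.75 and 7.99 in those labelled wildtype. The groups overlap, so the transcript did not check the labels, and no source used here says where the probe lies relative to the engineered allele. Directions below therefore refer to the labels. Of the tissue markers, 10 of 10 gastric epithelial, 11 of 12 intestinal epithelial and 9 of 9 smooth muscle genes passed the filter on dim probes. So did 16764 of all 18507 named genes, so passing it does not by itself show a tissue. All 8 liver markers passed too and were uneven. Their median difference, knockout minus wildtype, was 2.61, -0.31 and -0.57 in pairs 1, 2 and 3. The part of liver tissue in the values below was not tested. In tissue RNA, fewer cells of a type and less RNA per cell cannot be told apart.

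The complex IV subunit 8 isoforms include the gene of the widest span over the arrays, Cox8b, and a steady partner, Cox8a, so the DNA around their annotated starts is shown, with that of Cox6a1 as a second ubiquitous subunit. RefSeq windows of 250 bases before to 50 after the start (GRCm38.p6) were given for 61 of the 76 genes, 66 windows in all. Each sequence of 300 bases reads 5′ to 3′ on the gene's strand, with every match on either strand to 4 motifs in capitals: the NRF-1 core GCGCANGCG, the ETS core CCGGAAG, the E-box CAGCTG and the TATA box TATAAA. Cox8a lies at chr19:7217567-7217866, Cox8b at chr7:140900397-140900696 and Cox6a1 at chr5:115348909-115349208, all on the minus strand.
Cox8a: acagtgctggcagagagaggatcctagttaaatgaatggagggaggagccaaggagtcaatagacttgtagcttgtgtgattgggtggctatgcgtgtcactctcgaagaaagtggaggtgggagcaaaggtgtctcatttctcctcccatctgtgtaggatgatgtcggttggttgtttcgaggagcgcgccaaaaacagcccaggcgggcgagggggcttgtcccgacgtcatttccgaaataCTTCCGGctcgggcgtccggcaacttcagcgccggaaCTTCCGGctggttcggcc
Cox8b: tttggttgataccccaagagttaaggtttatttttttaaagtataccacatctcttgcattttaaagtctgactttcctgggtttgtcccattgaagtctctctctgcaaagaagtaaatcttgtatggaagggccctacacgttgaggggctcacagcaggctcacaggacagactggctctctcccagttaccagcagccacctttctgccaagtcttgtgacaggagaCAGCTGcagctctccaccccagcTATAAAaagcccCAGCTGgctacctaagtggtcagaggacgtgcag
Cox6a1: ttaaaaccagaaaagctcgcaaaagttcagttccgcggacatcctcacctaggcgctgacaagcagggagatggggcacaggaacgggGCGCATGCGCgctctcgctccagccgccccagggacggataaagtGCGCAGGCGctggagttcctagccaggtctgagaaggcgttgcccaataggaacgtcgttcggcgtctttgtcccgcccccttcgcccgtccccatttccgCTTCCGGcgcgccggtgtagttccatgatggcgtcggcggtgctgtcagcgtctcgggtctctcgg
The Cox8a window held 2 matches to the ETS core and none to the other motifs. The Cox6a1 window held 3 to the NRF-1 core, 2 of them overlapping on opposite strands, and 1 to the ETS core. The Cox8b window held neither of these and had 2 E-box matches and 1 TATA match. Over all 66 windows the NRF-1 core, the site of a regulator of respiratory genes, was found in 28.8% against 6.25% of all 32851 RefSeq windows. The ETS core, which GABP binds, was found in 24.2% against 8.86%. The E-box was found in 6.06% against 16.3%, and the TATA box in 13.6% of both. A match is a run of letters and does not show that a factor binds.

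The question put to these genes was whether the knockout label goes with a different transcript level of the respiratory chain. No difference was found that exceeds the spread between embryos. Of the 76 genes, 74 passed the filter on dim and flagged spots. Cox7b2, a testis isoform, was near background on all 6 arrays. Ndufs1, the large iron-sulphur subunit of complex I, had flagged spots on the 4 batch B arrays and read 11.32 on both arrays of pair 1. By limma with Benjamini-Hochberg adjustment over 16764 genes, 0 of the 74 passed an adjusted p of 0.05, where 0% of all genes did. At an unadjusted p under 0.05 the counts were again 0 of 74, against 1.13% of all genes (189).

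The differences were small and leaned upwards. In the arrays labelled knockout 51 of 74 genes were higher and 23 lower, against 48.1% higher over all genes, and the median log2 difference was 0.06 against -0.01 over all genes. In 48 genes the difference was under 0.1 in size and in 70 it was under 0.25, which is 94.6% of them against 86.5% of all genes. The 95% interval of the difference included 0 for all 74 genes. It lay between -1 and 1, a halving and a doubling, for 64 genes, and the intervals reached a median of 0.44 to either side, so shifts smaller than that could not be told from 0 gene by gene. Without the second wildtype array the median fell to 0.01.

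**Figure D1:**
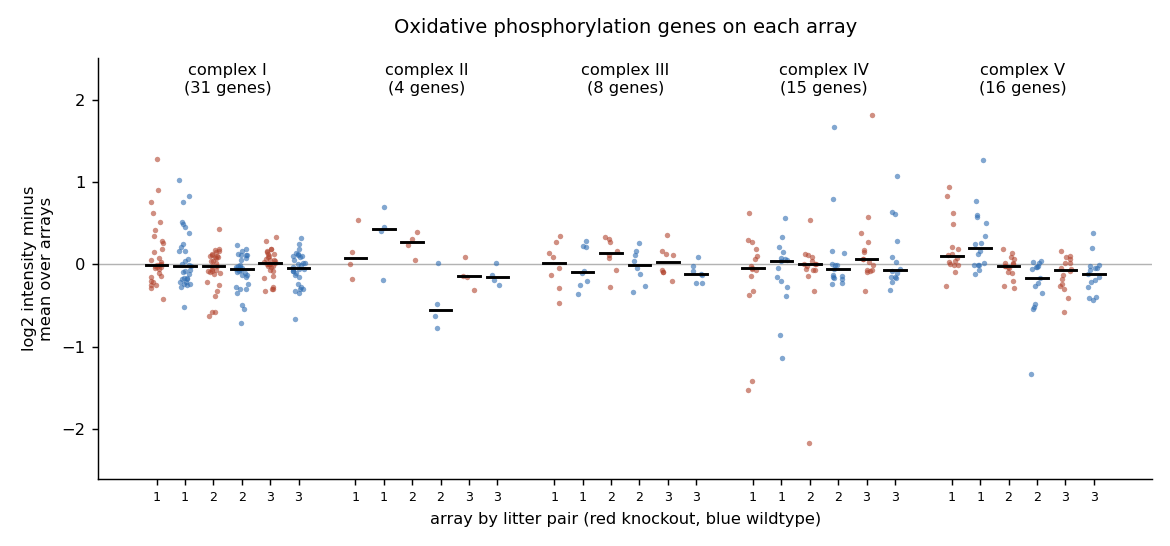
Log2 intensity of each oxidative phosphorylation gene minus its mean over the arrays (vertical axis) for each array (horizontal axis, by litter pair, red knockout and blue wildtype), grouped by complex. Each point is 1 gene and the black bars are medians. Most points lie near 0 on every array, complex II is lowest on wildtype 2, and the outlying points of complex IV are Cox8b and Cox4i2.

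Under quantile normalization the lean was slight in pairs 2 and 3 and absent from pair 1. Within pairs 1, 2 and 3 the median difference was 0.01, 0.05 and 0.06, against 0.02, -0.02 and -0.02 over all genes, with 38 of 74, 45 of 73 and 45 of 70 genes higher in the embryo labelled knockout. Of the 69 genes with a value on every array, 12 were higher in all 3 pairs and 5 were lower in all 3, against 11.5% and 11.6% of all genes. The first share is 17.4% and the second 7.25%. Those higher included Ndufb7, Ndufb2, Ndufa2, Ndufb9, Ndufv1, Sdha, Sdhb, Uqcr11, Cox5b, Cox7a2l and Atp5md. The 5 lower were Ndufa13, Ndufa4l2, Cox6a2, Cox4i2 and Atp5h, the last of them saturated. The groups did not overlap for 1 gene, Ndufv1, which was higher in the knockout arrays, against 2.23% of all genes. No member was lower without overlap, against 1.16% of all genes.

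How many genes leaned upwards depended on the scaling of the arrays. Under quantile normalization 51 of 74 were higher. With median scaling 69 of 74 were higher with a median of 0.16, where 57.4% of all genes were higher with a median of 0.02, and the deposited per-sample and series values each gave 69 of 74 and 0.15, against 58.1% and 58.3% of all genes. All 51 genes that were higher under quantile normalization were also higher with median scaling. With median scaling pair 1 leaned upwards too: 62 of 74 genes were higher with a median of 0.13, against 0.07 over all genes. In pairs 2 and 3 the medians were then 0.20 and 0.11, against 0.02 and -0.01 over all genes. Of 269 genes brighter than the median oxidative phosphorylation gene, 68.0% were higher with median scaling and 48.0% under quantile normalization. That set includes the brighter oxidative phosphorylation genes themselves, so it is not a separate comparison. Still 0 of the 74 passed either threshold under median scaling, the deposited per-sample values or the series values.

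**Figure D2:**
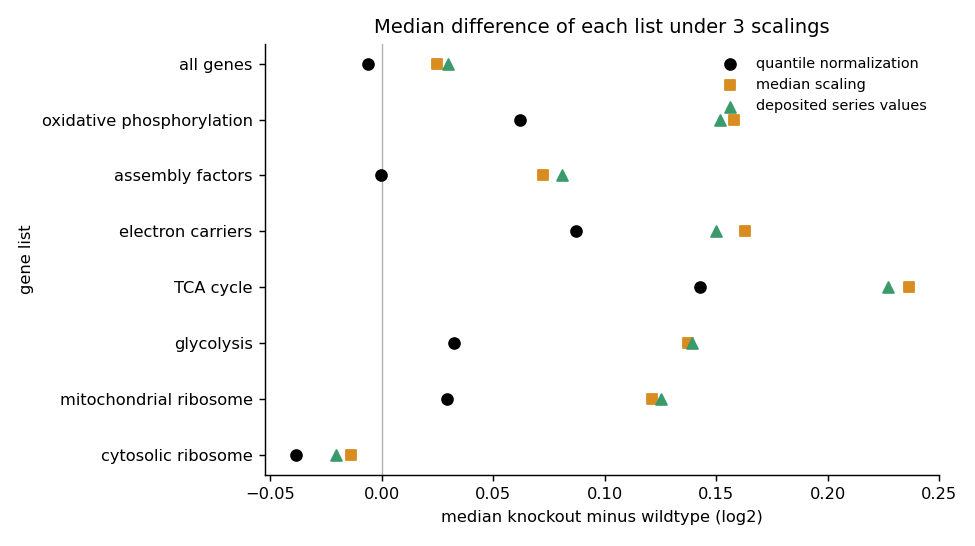
Median log2 difference, knockout minus wildtype (horizontal axis), of all genes tested and of 7 gene lists (vertical axis) under quantile normalization, median scaling and the deposited series values. The oxidative phosphorylation genes move from 0.06 to 0.16 and 0.15, while the cytosolic ribosomal proteins stay below 0 under all 3.

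Other mitochondrial lists gave the context, and no gene of any of them passed the adjusted threshold. Of the mitochondrial ribosomal proteins, which translate the subunits encoded in mitochondrial DNA, 43 of 72 were higher with a median of 0.03. Of 16 enzymes of the TCA cycle and pyruvate dehydrogenase, which supply NADH and succinate, 12 were higher with a median of 0.14. Of 14 genes of ubiquinone, cytochrome c and the electron transfer flavoprotein, 10 were higher with a median of 0.09. That list also holds Cyc1, a subunit of complex III, among the higher genes. The 37 assembly factors stood at 18 higher and a median of -0.00, and 15 glycolytic genes at 11 higher and 0.03. The 56 cytosolic ribosomal proteins, another set of bright probes, had 17 higher and a median of -0.04. Of these 56, 21 were saturated on every array of at least 1 group, which limits them as a comparison. Under median scaling the medians were 0.12 for the mitochondrial ribosome, 0.24 for the TCA cycle and 0.07 for the assembly factors. Glycolysis, which is not mitochondrial, then had 13 of 15 higher and a median of 0.14, and the median of the cytosolic ribosome was -0.01.

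Complex I, the NADH dehydrogenase, was the largest group and had the narrowest median span over the arrays, 0.43. Under quantile normalization, used for all counts by complex below, of its 31 tested genes 21 were higher and 10 lower, with a median of 0.04, and all 31 differed by less than 0.25. Ndufv1, the flavoprotein that takes electrons from NADH, read 12.08, 12.17 and 12.05 in knockout 1 to 3 and 12.05, 11.94 and 11.74 in wildtype 1 to 3. Every knockout value was above every wildtype value, but knockout 3 at 12.0542 and wildtype 1 at 12.0504 nearly met. The gap within pair 1 was 0.03. The difference was 0.19 with a standard error (SE) of 0.15 and a 95% interval from -0.17 to 0.55. Ndufa10, an accessory subunit, read 12.23, 12.92 and 12.58 against 12.32 and 12.38, with no value in wildtype 3. Its groups overlap, and the difference was 0.22 (SE 0.24). That direction rests on leaving out the flagged wildtype 3 spot: with flagged spots kept the difference was -0.0025.

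The 2 genes of complex I with the most negative moderated t-statistics differed no more. Ndufb3, an accessory subunit of the membrane arm, read 11.41, 10.51 and 10.63 in the knockout arrays and 11.36, 10.66 and 10.82 in the wildtype arrays. Here the 2 arrays of batch A stand above the 4 of batch B, and the difference of -0.10 (SE 0.30) is small beside that gap. Ndufa13, also known as GRIM-19, read 14.23, 14.15 and 14.20 against 14.40, 14.23 and 14.21, a difference of -0.08 (SE 0.14). It was lower in all 3 pairs, by under 0.01 in the third, and was saturated on 1 array. Ndufa4l2, a hypoxia-induced relative of the complex IV subunit Ndufa4 and described here as an isoform, read 11.08, 10.35 and 10.50 against 11.15, 10.39 and 10.51. It too followed the batch, and its difference was -0.04 (SE 0.28).

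**Figure D3:**
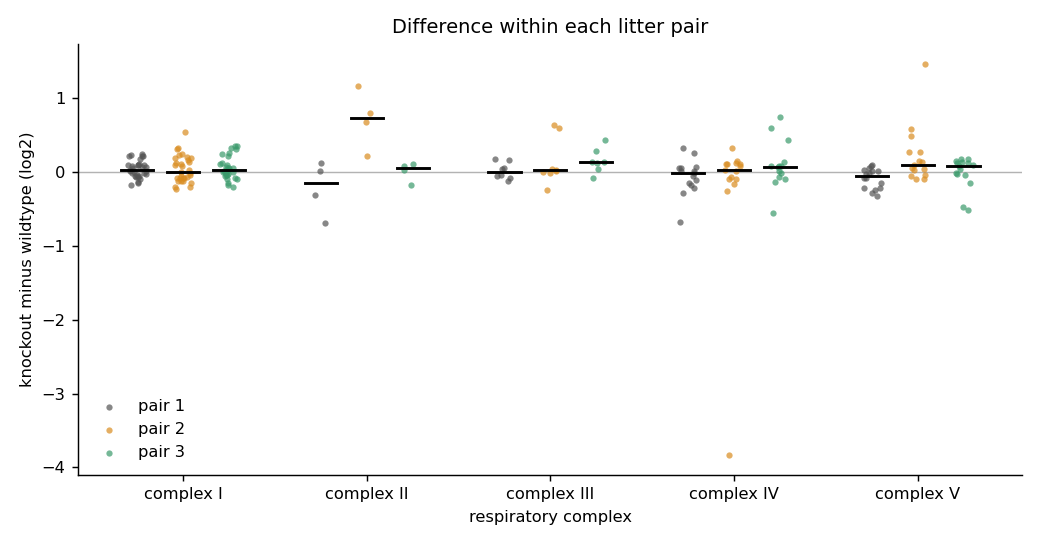
Difference in log2 intensity between the knockout and the wildtype array of each litter pair (vertical axis) for every oxidative phosphorylation gene with both values, by complex (horizontal axis). Points are genes and black bars medians. Pair 2 stands above the others in complex II, where its median is 0.74, and the point at -3.83 is Cox8b.

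Complex II, succinate dehydrogenase, links the TCA cycle to the chain, and all 4 of its genes were higher on average in the knockout arrays, with a median of 0.14. Sdha, the flavoprotein, read 13.25, 13.65 and 13.52 in the knockout arrays and 13.23, 13.44 and 13.44 in the wildtype arrays. It was higher in all 3 pairs, but the groups overlap (difference 0.10, SE 0.17). Sdhb, the iron-sulphur subunit, read 13.30, 12.82 and 12.63 against 13.18, 12.14 and 12.52. It was also higher in every pair, most in pair 2, with a difference of 0.31 (SE 0.31) and an interval from -0.43 to 1.04.

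The membrane anchors Sdhc and Sdhd were less even. Sdhc read 11.63, 12.02 and 11.47 against 12.32, 10.86 and 11.44. Its knockout arrays lie inside the range of the wildtype arrays, which hold both the highest and the lowest value, and the difference was 0.17 (SE 0.37). Sdhd read 12.70, 12.86 and 12.24 against 13.01, 12.06 and 12.42, with the same extremes and a difference of 0.11 (SE 0.29). The complex II medians within pairs 1, 2 and 3 were -0.15, 0.74 and 0.06. Without pair 2 the median over groups was -0.10, without the second wildtype array it was -0.02, and without 1 of the other arrays in turn it reached 0.46 at most.

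That second pair carried most of the larger upward differences among the genes. In pair 2, 8 of 73 genes were higher by at least 0.5 in the knockout array, against 10.2% of all genes, so the share of 10.96% was near the background. They were Atp5b, Sdhc, Sdhd, Sdhb, Uqcrfs1, Uqcrq, Atp5pb and Ndufa10, and 6 of the 8 were lower in the knockout array of pair 1. In pair 1 no gene was higher by at least 0.5, against 2.51% of all genes. In pair 3 the 2 genes Cox8b and Cox7a1 were, against 4.06%. Downward differences of that size were as few: Sdhc and Cox8b in pair 1 (3.78% of all genes), Cox8b in pair 2 (4.04%), and Cox6a2 and Atp5c1 in pair 3 (5.03%).

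Other lists were also higher in the knockout array of that pair. The TCA cycle list had pair medians of -0.12, 0.36 and 0.16. Citrate synthase (Cs), chosen as an example after its values were seen, read 9.97, 9.55 and 9.32 against 10.001, 8.28 and 9.08, lowest in wildtype 2. The intestinal epithelial markers had pair medians of -0.20, 1.18 and 0.79. The mean log2 level of the 11 tested markers lay between 12.11 and 12.35 in the knockout arrays. In the wildtype arrays it lay between 11.38 and 12.35, lowest in wildtype 2. The part of the gut epithelium in the pair 2 values was not tested.

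**Figure D4:**
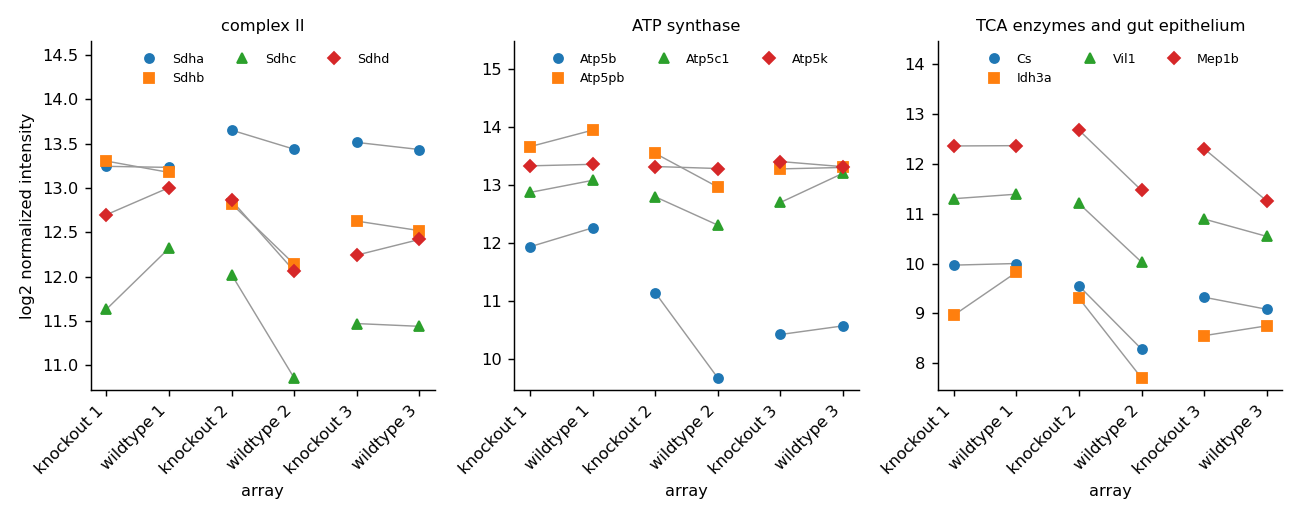
Log2 normalized intensity (vertical axis) on each array (horizontal axis) of the 4 complex II genes, of 4 ATP synthase genes, and of 2 TCA cycle enzymes (Cs, Idh3a) with 2 markers of gut epithelium (Vil1, Mep1b). Grey lines join the 2 arrays of a litter pair. Sdhb, Sdhc, Sdhd, Atp5b, Cs, Idh3a and Vil1 have their lowest value on wildtype 2, while Atp5k stays level.

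Complex III, the cytochrome c reductase, had 6 of 8 genes higher and a median of 0.10. Uqcrq, a small subunit that binds ubiquinone, read 6.68, 6.93 and 6.53 against 6.50 and 6.34, with no value in wildtype 3. The difference over these 5 arrays was 0.30 (SE 0.20, interval -0.19 to 0.78). The flagged wildtype 3 spot was the brightest of the 6 on the deposited scale, and with flagged spots kept the difference was -0.04. Uqcrc1, a core protein, read 9.16, 9.31 and 9.36 against 8.997, 9.32 and 9.07, which overlap (0.15, SE 0.16). Uqcr10 read 8.03, 7.41 and 7.60 against 7.98, 7.65 and 7.47, and Uqcrb read 14.06, 14.50 and 14.48 against 14.09, 14.52 and 14.44. Their differences were -0.02 (SE 0.22) and -0.00 (SE 0.20), and the other tested probe of Uqcr10 differed in sign, at 0.03. Uqcrh was saturated on all 6 arrays.

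Complex IV, cytochrome c oxidase, had 8 genes higher, 7 lower and a median of 0.01 under quantile normalization, and 12 of 15 higher with a median of 0.10 under median scaling. It held the gene of the widest span. Cox8b, the subunit 8 isoform of muscle and brown fat, read 7.62, 6.97 and 10.96 in the knockout arrays and 8.29, 10.81 and 10.22 in the wildtype arrays. On the deposited linear scale, where an array's median is 1, these arrays read 0.990, 0.540 and 12.7 against 1.91, 11.9 and 7.17. The first 2 knockout arrays are the lowest and the third is the highest of all 6, so the groups overlap. The pair differences were -0.67, -3.83 and 0.74, and the mean difference was -1.25 (SE 1.12, interval -3.93 to 1.42). The difference was -2.48 without knockout 3, -2.25 without pair 3 and 0.04 without pair 2. The first 2 of these fits leave out the highest array, and in both Cox8b was under an unadjusted p of 0.05 by limma. Over all genes 95 of 16609 and 25 of 16321 were under it in those fits. Cox8b passed the adjusted threshold in none of the 3 fits.

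Its ubiquitous partner Cox8a read 13.39, 13.53 and 13.35 against 13.38, 13.42 and 13.44. All 6 arrays lie within 0.18 of each other, where those of Cox8b span 3.99, and the difference was 0.01 (SE 0.14, interval -0.32 to 0.34).

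Some fat cell genes had a profile over the arrays close to that of Cox8b. Ucp1, the uncoupling protein that defines brown fat, read 7.15, 6.11 and 11.62 in the knockout arrays and 8.41 and 11.40 in the wildtype arrays, with no value in wildtype 3. Adipoq, the fat cell hormone adiponectin, read 6.88, 6.18 and 9.66 against 7.29, 9.79 and 8.97. Both were chosen after their values were seen. On the 5 arrays with all values, Ucp1 and Cox8b put the arrays in the same order, and Adipoq differs only in its top pair. Not all of the list did so: Dio2, which activates thyroid hormone in brown fat, was highest in knockout 1 at 8.66 and read 7.997 in knockout 3, and Elovl3, a fatty acid elongase, differed by at most 0.05 within a pair. The 6 brown fat markers, all of them tested, had pair medians of -0.23, -1.18 and 0.18. Over the 5 with every value the mean log2 level lay between 8.04 and 9.31 in the knockout arrays and between 8.50 and 9.32 in the wildtype arrays. Ucp1 was near background on 1 array. The part of fat tissue in the Cox8b values was not tested.

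Striated muscle markers were mostly lower in the knockout arrays. Of 14 tested, 12 were lower, against 8696 of all 16764 genes. In all 3 pairs 9 of the 14 were lower, against 11.6% of all genes. Their pair medians were -0.13, -0.96 and -0.95, and no gene passed the adjusted threshold. Mean levels lay between 8.26 and 9.45 in the knockout arrays and between 8.87 and 10.24 in the wildtype arrays. Tnnc2, the troponin C of fast muscle, read 8.21, 6.82 and 10.09 against 9.16, 9.9997 and 11.32. Mylpf, a fast myosin light chain, read 9.83, 8.81 and 11.45 against 10.84, 11.40 and 12.49, and Mybpc1 read 7.53, 7.65 and 8.94 against 8.08, 10.003 and 10.67. On the 5 arrays other than wildtype 3, Tnnc2 and Mylpf give the same order as Cox8b and Ucp1. On wildtype 3, where Ucp1 has no value, all 3 muscle genes were highest and Cox8b and Adipoq were not.

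**Figure D5:**
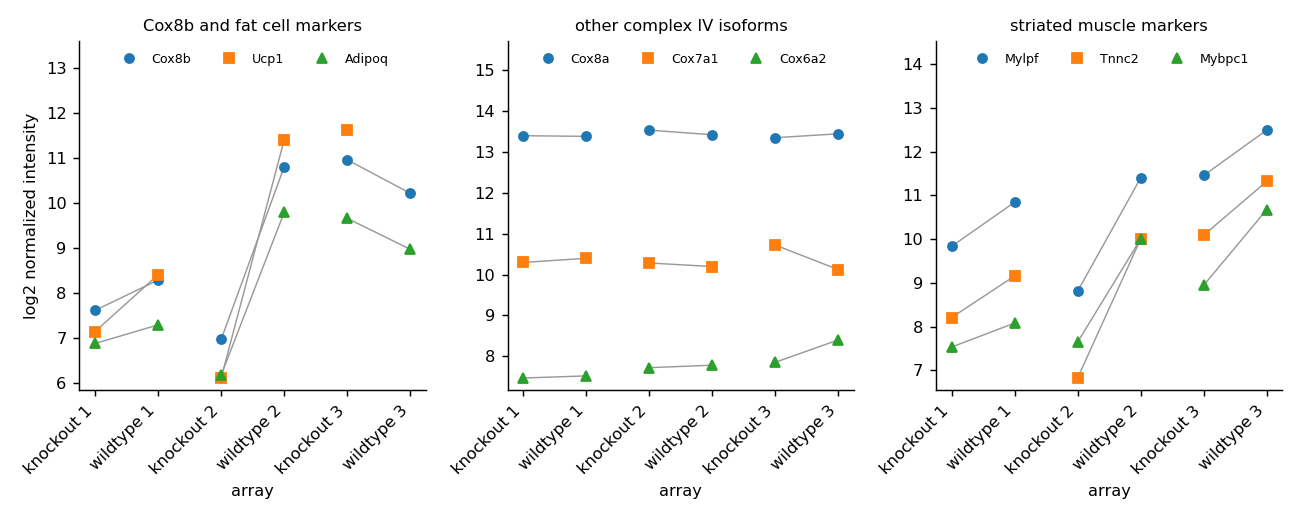
Log2 normalized intensity (vertical axis) on each array (horizontal axis) of Cox8b with the fat cell genes Ucp1 and Adipoq, of Cox8a, Cox7a1 and Cox6a2, and of 3 striated muscle genes. Grey lines join the 2 arrays of a litter pair. Cox8b, Ucp1 and Adipoq are lowest on knockout 2 and high on wildtype 2 and knockout 3. The 3 muscle genes shown are highest on wildtype 3, and Cox8a is level.

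The other muscle isoforms had narrower spans than Cox8b. Cox6a2, the isoform of heart and skeletal muscle, read 7.47, 7.72 and 7.86 against 7.52, 7.78 and 8.40. Wildtype 3 stands highest, as for Tnnc2, Mylpf and Mybpc1, and the difference of Cox6a2 was -0.22 (SE 0.25). Not every tested striated muscle marker peaked there: Actc1, Tnni2 and Myog were highest in wildtype 2, and Tnnt1 and Myod1 in knockout 1. Cox7a1 read 10.30, 10.28 and 10.72 against 10.40, 10.20 and 10.12, highest in knockout 3, with a difference of 0.19 (SE 0.18). Their ubiquitous partners gave nothing larger: Cox7a2 read 13.95, 14.45 and 14.48 against 14.12, 14.34 and 14.61 (-0.06, SE 0.22), while Cox6a1 was saturated on all 6 arrays and has no fold.

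Cox4i2, the subunit 4 isoform of lung that is induced by hypoxia, read 7.59, 9.55 and 9.58 against 7.87, 9.80 and 9.65. The step was between batch A and batch B, which differed by -1.91, while the pair differences were -0.28, -0.25 and -0.06 (mean difference -0.20, SE 0.71). The main isoform Cox4i1 read 14.53, 14.20 and 14.27 against 14.67, 14.18 and 14.19, with 2 saturated spots and a difference of -0.01 (SE 0.20). Cox7a2l, which helps join complexes III and IV into supercomplexes, read 12.53, 12.32 and 12.16 against 12.27, 11.996 and 12.14. It was higher in all 3 pairs with overlapping groups, at 0.20 (SE 0.17, interval -0.19 to 0.60). Cox6b1 read 13.54, 13.72 and 13.95 against 13.53, 13.82 and 13.52 (0.12, SE 0.18). Cox7b was saturated on all knockout arrays, and so was Cox7c, so no fold is given for them.

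Complex V, ATP synthase, had 12 of 16 genes higher and a median of 0.05. Atp5b, the catalytic beta subunit of F1, read 11.93, 11.14 and 10.42 in the knockout arrays and 12.26, 9.67 and 10.57 in the wildtype arrays. The wildtype arrays hold both extremes, the knockout arrays lie within them, and the difference was 0.33 (SE 0.69, interval -1.30 to 1.97). The pair differences were -0.33, 1.47 and -0.15, so 2 of the 3 pairs ran against the mean. Its arrays spanned 2.59, and those of other F1 subunits spanned less: 1.37 for Atp5a1 (alpha), 0.90 for Atp5c1 (gamma) and 0.17 for Atp5e (epsilon).

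The 3 genes for the ring-forming c subunit, which encode the same mature protein and differ in their import sequences, differed by less than their errors. Atp5g1 read 14.16, 13.46 and 13.43 against 14.24, 13.32 and 13.38 (0.03, SE 0.32). Atp5g2 read 12.46, 12.40 and 12.12 against 12.39, 12.36 and 12.59 (-0.12, SE 0.16), lowest in knockout 3, and its sign turned under median scaling (0.02). Atp5g3 read 14.83, 14.73 and 14.66 against 14.84 and 14.50, with no value in wildtype 2 (0.07, SE 0.19). Atp5j, coupling factor 6 of the stalk, read 14.01, 13.93 and 14.08 against 13.91, 14.02 and 13.91 (0.06, SE 0.14). Atp5h, the stalk subunit d, was saturated on all 6 arrays, so no fold is given, and Atp5d, the delta subunit, was saturated on all knockout arrays. Without the second wildtype array the complex V median was -0.08.

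The median span from lowest to highest array was 0.46, against 0.67 over all genes and 0.57 over the 269 brighter genes, some of them members. It was 0.44 over the 56 cytosolic ribosomal proteins, of which 21 were saturated on every array of at least 1 group. Of the members, 39 of 74 spanned under 0.5. A span over 1 was found in 11 of 74 (14.9%), against 24.1% of all genes, and a span over 2 in Cox8b, Atp5b and Cox4i2. Atp5k, ATP synthase subunit e, spanned 0.12. Some spots were at the scanner's limit: 16 genes were saturated on at least 1 array, 3 on all 6 and 6 on every array of a group. Without these 6 genes 46 of 68 were higher and the median was 0.05.

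Some of the wider spans ran along the scan batch. The means of batch A and batch B were over 1 apart in 7 of 74 genes, against 8.38% of all genes. Ndufb7, a complex I subunit of the intermembrane space, read 12.84 and 12.58 in pair 1 and between 10.85 and 11.26 on the other 4 arrays. Ndufa5, Ndufc2, Atp5a1 and Atp5b were also higher in batch A, by 1.31, 1.14, 1.20 and 1.65, while Cox4i2 and Cox8b were lower. Scan batch and litter cannot be told apart for pair 1, which is the only pair of batch A. Each batch holds both labels. Under quantile normalization, within batch B alone 48 of 69 genes were higher, with a median of 0.09 and 0 past either threshold. The median of pair 1 was 0.01 under the same scaling.

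Regulators of mitochondrial biogenesis gave no larger differences. Of 17 tested, including Ppargc1a, Nrf1, Gabpa and Tfam, 10 were higher with a median of 0.04, and 0 passed either threshold. Twnk, the helicase of mitochondrial DNA, read 8.33, 8.04 and 8.03 against 8.09, 7.95 and 7.63, higher in all 3 pairs with overlapping groups (0.24, SE 0.18). Polg, the mitochondrial DNA polymerase, read 8.12, 8.26 and 7.75 against 8.39, 7.37 and 7.76 (0.20, SE 0.29). Gabpa, a subunit of GABP, read 7.13, 7.57 and 7.18 against 7.40, 7.09 and 7.03 (0.12, SE 0.19). Polg and Gabpa were both lower in the knockout array in pair 1 and higher in pair 2.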

How the data were processed

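Total RNA of 6 embryos was read on 1 array each. Per the file headers, raw intensity was deposited as a mean per spot with a median for its local background. The deposited per-sample and series values are intensity less background, scaled to the array median, and the medians of the series values lay between 0.996 and 1.02. Spot means were background corrected with normexp (offset 50), quantile normalized and taken to log2. Flagged spots, 0.418% to 3.34% of probes, were set missing. A probe was tested if above background on at least 3 arrays with a value on at least 2 per group (30207 probes, 16764 genes, the brightest probe per gene). Groups were compared with limma 3.58.1 (R 4.3.3) and Benjamini-Hochberg adjustment at 0.05. With 3 against 3 arrays an exact permutation test cannot go below 0.1, so none was used.

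Probe symbols came from the platform annotation, updated through a RefSeq table of GRCm38.p6. Motifs were counted in RefSeq windows. The limma script was tested on simulated data.

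Named genes were Nkx3-2, all tested isoform and complex II genes, the 2 highest and 2 lowest moderated t-statistics in complexes I, III, IV and V, and the 3 largest among biogenesis regulators and striated muscle markers. Others named were chosen after their values were seen. Some results are not reported here. The members and lists were chosen with earlier results of these data known. Litter pairs come from the animal codes, and paired arrays deviated from their groups together, correlating at 0.789, 0.406 and 0.585 over 18398 probes. Unpaired arrays of batch B correlated at 0.542 and 0.646, so within it the values do not single out the pairs. Alternatives were blocks for pair or scan batch, other scalings, backgrounds and filters, array weights and arrays left out. For the deposited values 0.25 was added before log2.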

Additional observations from a re-analysis of the deposited data

How the results depend on the processing

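With the litter pair as a replicate block 0 genes were called over the whole array and 0 oxidative phosphorylation genes, as in every other alternative run. Unadjusted counts over all genes were 189 without a block, 760 with the pair as a block, 978 with scan batch as a block and 1931 of 16045 within batch B, and 0 oxidative phosphorylation genes were among them in each. Array weights, gene by gene, gave 1922, with Cox7a1 and Ndufv1 among them.

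The median difference of the oxidative phosphorylation genes, 0.06, was 0.0892 within batch B, which is also the fit without pair 1, 0.0309 without pair 2 and 0.0233 without pair 3. It was 0.16 with median scaling, 0.15 with the deposited per-sample values and 0.15 with the series values. In the same order of these 3 scalings complex I gave 0.16, 0.15 and 0.15, complex III 0.21, 0.20 and 0.21, complex IV 0.10, 0.0891 and 0.0975, and complex V 0.16, 0.15 and 0.16. Complex I was 0.0530 within batch B, 0.0640 with array weights and 0.0226 without pair 3. Complex III was 0.0187 without pair 3, and complex IV 0.0557 with array weights. Leaving out 1 array at a time gave 0.0144 to 0.0629 over all members, 0.0194 to 0.0603 for complex I, -0.0207 to 0.46 for II, 0.0668 to 0.14 for III, 0.0122 to 0.0796 for IV and -0.0830 to 0.11 for V. The lowest values of all members and of complexes I, II, IV and V came without wildtype 2, and the highest of complexes I and IV without knockout 2. The causes were not tested.

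Of the 30 members named by rule, 9 kept 1 sign under each alternative run for them, and 21 changed sign under at least 1. A block for pair or scan batch cannot change the difference of a gene with a value on every array. The 9 include the saturated genes Atp5h and Cox7b, and for Cox7b and Atp5g3 only 15 of the 21 alternatives were run. No fold can be given for genes at the scanner's limit, and 3 embryos per label limit the precision of the rest.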

Other observations

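The list of electron carriers was not described gene by gene above, and the examples here were chosen after their values were seen. Cyc1, the cytochrome c1 of complex III whose symbol the rule does not cover, read 13.23, 13.01 and 12.82 in the knockout arrays and 12.90, 12.59 and 12.67 in the wildtype arrays. It was higher in all 3 pairs with overlapping groups, and the difference was 0.30 (SE 0.18). Etfdh, which passes electrons from fatty acid oxidation to ubiquinone, read 11.50, 10.99 and 10.91 against 11.42, 10.13 and 10.43, also higher in all 3 pairs (0.47, SE 0.36). These 2 had the largest upward differences of the 14 tested genes of their list, of which 10 were higher and 4 lower. Cytochrome c itself, Cycs, was among the 4 lower, at -0.02 (SE 0.22). Atp4a, the proton pump of the mitochondria-rich parietal cell, read 11.69, 12.53 and 10.91 against 9.06, 11.29 and 13.02. Its highest array was wildtype 3 and its lowest wildtype 1.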
